A study of Homo sapiens with 16 samples.

Results

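The mitochondrial ribosomal protein genes were followed across single SK-N-AS cells, a human neuroblastoma line in long-standing use. The members are all rows of the count table with a name that starts with MRPL or MRPS and a digit, which gave 79 rows of 27043. Of these, 76 name protein genes, 49 of the large and 26 of the small subunit, and MRPS36, whose product is now placed in the 2-oxoglutarate dehydrogenase complex rather than in the ribosome. The other 3 rows are the antisense RNA MRPL23-AS1, the pseudogene MRPL45P2 and a row that joins C15orf57 with the pseudogene MRPL42P5. The cells were untreated, grown in RPMI1640 with 10% fetal calf serum and sorted singly into plates for MARS-seq, a method that tags the 3' ends of transcripts with a barcode for each well. The labels list 16 samples of this line, but nothing in the table ties a column to one of them. All 603 cells therefore count as 1 sample without replicates, and no test between samples was possible.

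The mitochondrial ribosome makes the few core subunits of the respiratory chain that are encoded in mitochondrial DNA. Its RNA comes from the mitochondrion, while all of its proteins are encoded in the nucleus, made in the cytosol and imported. Many are relatives of bacterial ribosomal proteins, and others are found only in mitochondria. In a finished particle most of them are present in a single copy, with MRPL12, the stalk protein that recruits translation factors, as the known exception.

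Cells held 1537576 counts in all, with totals of 1000 to 42404 and a median of 2106 per cell. Well barcodes start over after column 316, with 239 of them used again in the later 287 columns, and the stretches before and after this point are called barcode sets 1 and 2. They serve as a technical check and are not groups of the study. The neuroblastoma genes HAND2, GATA3 and TBX2 stood at 273, 169 and 407 CPM (counts of a gene per 1000000 counts, over all cells), and the mesenchymal gene VIM at 5649 CPM. Of 10 markers of leukocytes, Schwann lineage, endothelium and red cells, 8 had no count, PTPRC stood at 18.9 CPM and PECAM1 had 2 counts. All intervals cover counting error at 95% and nothing else.

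The start regions of these genes were searched for the letters of known motifs. RefSeq windows of 300 bases (250 before the start of the gene and 50 after it, build GRCh38.p14) were matched to 68 of the 76 protein genes, which lie on 20 chromosomes. The windows below belong to 4 of the 10 most abundant members and were chosen because each carries letters of a motif counted over all members. Capitals mark these letters on either strand: CCGGAAG, the core bound by ETS factors such as GABP, in MRPS21 and MRPL52, AAGATGGCG, the core of the YY1 motif, in MRPS24 and MRPL52, and GCGCANGCG, the core of the NRF1 motif, in MRPL17, where these letters overlap on both strands. GABP, YY1 and NRF1 are known regulators of nuclear genes for mitochondria.
MRPS21 (chr1:150293611-150293910, plus strand): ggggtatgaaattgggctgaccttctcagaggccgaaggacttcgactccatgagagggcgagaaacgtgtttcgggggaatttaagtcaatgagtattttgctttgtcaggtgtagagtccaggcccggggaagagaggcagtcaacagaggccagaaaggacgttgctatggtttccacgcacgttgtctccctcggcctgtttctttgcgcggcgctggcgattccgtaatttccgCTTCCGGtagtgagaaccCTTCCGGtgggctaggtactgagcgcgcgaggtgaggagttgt
MRPL17 (chr11:6683291-6683590, minus strand): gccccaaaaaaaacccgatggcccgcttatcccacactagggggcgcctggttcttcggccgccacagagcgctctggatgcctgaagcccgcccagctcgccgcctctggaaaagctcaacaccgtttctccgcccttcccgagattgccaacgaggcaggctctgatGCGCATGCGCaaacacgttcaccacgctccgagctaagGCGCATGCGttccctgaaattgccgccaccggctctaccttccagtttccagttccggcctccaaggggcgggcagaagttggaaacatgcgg
MRPS24 (chr7:43869468-43869767, minus strand): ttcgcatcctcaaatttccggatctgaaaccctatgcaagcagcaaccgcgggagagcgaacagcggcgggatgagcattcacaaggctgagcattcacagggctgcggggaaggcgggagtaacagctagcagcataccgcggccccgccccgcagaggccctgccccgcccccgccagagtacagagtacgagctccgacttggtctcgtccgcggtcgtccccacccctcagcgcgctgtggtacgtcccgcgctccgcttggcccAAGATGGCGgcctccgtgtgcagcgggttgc
MRPL52 (chr14:22829637-22829936, plus strand): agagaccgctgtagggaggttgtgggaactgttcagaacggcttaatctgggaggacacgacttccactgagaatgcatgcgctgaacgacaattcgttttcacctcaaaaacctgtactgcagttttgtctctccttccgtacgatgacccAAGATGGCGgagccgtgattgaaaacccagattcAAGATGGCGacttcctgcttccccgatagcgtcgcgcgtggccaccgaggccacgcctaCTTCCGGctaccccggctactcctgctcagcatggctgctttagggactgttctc

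The ETS letters were found in 28 of 68 member windows (41.2%), against 14.2% of 15843 windows of protein-coding genes. The YY1 letters were found in 13 member windows (19.1%), against 2.74% of all windows. The NRF1 letters stood in 12 member windows (17.6%), against 11.02% of all. GGGCGG, the core of SP factors, was found in 61.8% of member windows and 58.5% of all, and TGACGTCA, the CREB site, in 0 of 68 members and 2.59% of all. Among windows of like GC content (55.8 to 65.1%), the ETS letters occurred in 41.2% of 34 members and 19.5% of 4681 windows, the YY1 letters in 11.8% of members and 3.46% of all, and the NRF1 letters in 23.5% of members and 11.9% of all. In the same windows the SP letters occurred in 70.6% of members and 56.9% of all, and the CREB letters in 0.0% and 3.27%. A divergent gene on the other strand starts within 500 bases of 12 members (17.6%), against 9.18% of all windows. MRPS11 and MRPL46 share such a region with each other, MRPS12 with SARS2, the mitochondrial seryl-tRNA synthetase, and MRPL49 with FAU, a cytosolic ribosomal protein gene. These matches describe letters in a window and were not tested as binding sites. Members with and without the ETS letters had median levels of 143 and 122 CPM, and those with and without the YY1 letters 137 and 141 CPM, both small beside the spread between members.

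The first question is how abundant these transcripts are and how evenly they are supplied. Together the 79 rows held 20134 counts, 1.31% of all counts, with 1.29% in barcode set 1 and 1.33% in set 2. The respiratory chain, with 77 nuclear genes, held 3.91% and the cytosolic ribosomal protein genes 17.3%. The median protein member stood at 139 CPM, with quartiles of 62.6 and 259 CPM. The median respiratory chain gene stood at 352 CPM, the median cytosolic ribosomal protein gene at 1449 CPM and the median protein-coding row at 4.55 CPM. Of the 18663 protein-coding rows 6385 had no count, and the median of those with a count was 17.6 CPM. Levels are counts of 3' tags and were not divided by transcript length, because each transcript gives tags from its end.

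Both subunits were supplied at like levels. The large subunit genes had a median of 144 CPM and the small subunit genes 139 CPM. Relatives of bacterial proteins stood at 148 CPM in the large and 142 CPM in the small subunit, and mitochondria-specific proteins at 106 and 85.8 CPM, with quartiles that overlap. On the log2(CPM + 1) scale the SD between protein members was 1.56, against 1.85 for the respiratory chain and 3.64 for the cytosolic ribosomal protein rows, which include rows at 0.

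MRPS21, the relative of bacterial S21, was the most abundant member by a wide margin, at 1053 CPM (interval 1002 to 1106). It was seen in 82.9% of cells and had 1009.8 and 1098 CPM in barcode sets 1 and 2. It gave 8.04% of all member counts. Its level is uncertain in one respect, since RefSeq names 9 pseudogenes of MRPS21, and the handling of reads from such copies is unstated. The mitochondria-specific large subunit gene MRPL51 followed at 553 CPM (517 to 592) and was seen in 65.5% of cells. MRPS24, the counterpart of bacterial S3 at the mRNA entry, stood at 435 CPM (403 to 469). MRPL17, whose bacterial relative sits near the exit of the peptide tunnel, stood at 429 CPM (396 to 463). The intervals of MRPS24 and MRPL17 overlap, and those of MRPS21 and MRPL51 lie apart from all others.

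MRPS15 stood at 380 CPM (350.3 to 413), MRPL53 at 371 CPM and MRPL52 at 366 CPM. MRPL40 stood at 348 CPM, MRPS7, whose bacterial relative organises the head of the small subunit, at 338 CPM, and MRPL24, a protein at the tunnel exit, at 334 CPM (306 to 364). From MRPS15 to MRPL24 each neighbour in this order lay within the counting interval of the next. The 10 highest members gave 35.2% of the member counts. In all, 46 protein members reached 100 CPM, 9 had a count in over 50% of cells, and 12 had one in under 10% of cells.

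At the low end MRPS2, the relative of bacterial S2, had 1 count in 603 cells (0.650 CPM, 0.0165 to 3.62). MRPS25 had 11 counts (7.15 CPM, 3.57 to 12.8), MRPL1 14 counts (9.11 CPM, 4.98 to 15.3) and MRPL42 17 counts (11.1 CPM, 6.44 to 17.7). These proteins belong to the same particle as the most abundant members, so the 3' counts of single subunits differ by far more than their known single copy per ribosome. RefSeq names 6 pseudogenes of MRPL42 and 1 of MRPS25, while MRPS2 and MRPL1 have no named one. The annotation of 3' ends and the handling of reads that match several places are unstated. Whether these low counts reflect scarce transcripts was not tested. The pseudogene MRPL45P2 had 3 counts. MRPL23-AS1 had no count, which allows up to 1.95 CPM, or 0.498% of cells with a count.

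RefSeq names at least 1 pseudogene for 41 of the protein members. Their median was 137 CPM, against 144 CPM for the 35 members without one. The 3 rows that join a member with another gene, DNAJC9 with MRPS16, MRPL38 with FBF1, and C15orf57 with MRPL42P5, gave 3.54% of member counts, and the share of the neighbouring gene in them cannot be told apart. The DNAJC9 and MRPS16 row stood at 304 CPM and is named MRPS16 in the plots.

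The 3 paralogs of bacterial S18 differ in where they sit. MRPS18B and MRPS18C are in the small subunit at different sites, and MRPS18A is in the large subunit. MRPS18B stood at 180.2 CPM (159.6 to 203), MRPS18C at 141 CPM (123 to 161) and MRPS18A at 120.3 CPM (104 to 139). The intervals of MRPS18C and MRPS18A overlap, and MRPS18B lies above that of MRPS18A.

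**Figure D1:**
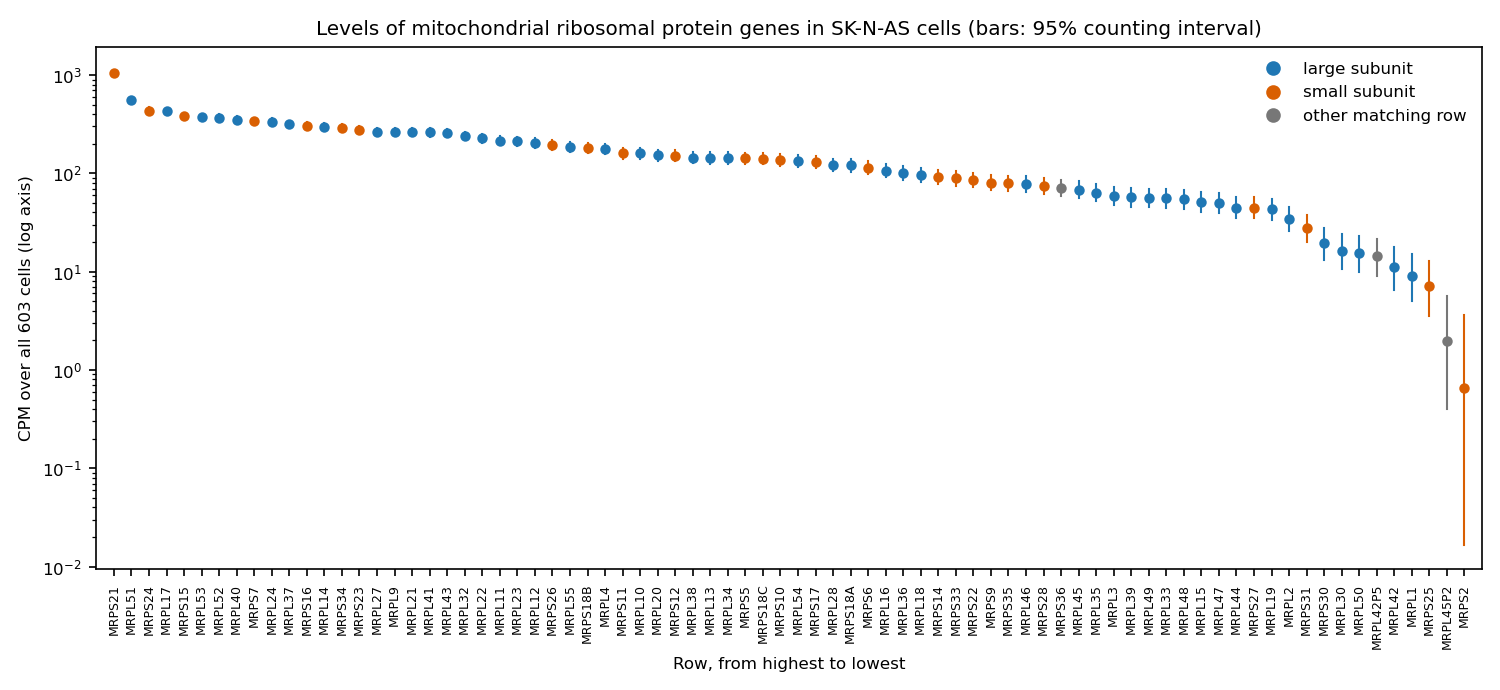
Level of each of the 78 rows with a count, as CPM over 603 cells on a log axis, ordered from high to low, with 95% counting intervals as bars and the subunit as colour. The colours are mixed through most of the order, with the small subunit genes MRPS21 at 1053 CPM and MRPS2 at 0.650 CPM at its ends, and the large subunit genes between MRPL51 at 553 CPM and MRPL1 at 9.11 CPM.

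Levels held between barcode sets. Over the 68 members with at least 50 counts, the median log2 ratio of set 1 to set 2 was -0.03, and 62 members lay within 0.5 of 0. MRPL15 was the lowest at -0.77 and MRPL46 the highest at 0.47.

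Ribosomal subunits sit beside other genes of the same pathway. The 7 mitochondrial ribosome proteins with other names had a median of 291 CPM, led by AURKAIP1 at 418 CPM, GADD45GIP1 at 399 CPM, the GTP-binding protein DAP3 at 332 CPM and CHCHD1 at 291 CPM, with PTCD3 lowest at 21.5 CPM. ICT1, a peptide release factor built into the large subunit, stood at 281 CPM. Factors and enzymes that are not part of the ribosome were rarer. The 15 translation factors had a median of 22.1 CPM, led by the elongation factor TUFM at 475 CPM, SLIRP at 248 CPM, TACO1 at 140.5 CPM and TSFM at 99.5 CPM. The 19 tRNA synthetases had a median of 30.6 CPM, led by KARS at 538 CPM and GARS at 419 CPM, which also serve the cytosol, then FARS2 at 224 CPM and IARS2 at 74.8 CPM. The 19 assembly factors stood at 23.4 CPM, led by FTSJ2 at 186 CPM, C7orf30 at 114 CPM, DHX30 at 80.6 CPM and FASTKD2 at 73.5 CPM. The 15 genes for mitochondrial DNA and RNA upkeep stood at 44.9 CPM, led by HSD17B10 at 260.2 CPM, SSBP1 at 257 CPM, KIAA0391 at 140.5 CPM and C10orf2 at 79.3 CPM.

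The second question is whether single cells differ in their mitochondrial ribosome transcripts. Each cell was thinned at random to 1100 counts, so that all cells have the same depth, which kept 560 cells and left out 43. The median cell then had 14 member counts, with 4 in the lowest and 32 in the highest cell and quartiles of 12 and 17. The coefficient of variation was 28.8%, where counting alone at this mean gives 26.3%. The variance of the summed count was 1.20 times its mean, or 1.10 times if the members had no covariance. In a second random thinning these values were 1.09 and 1.07, at 1500 counts per cell (431 cells) 1.21 and 1.10, at 2000 counts (327 cells) 1.06 and 1.11, and at 3000 counts (155 cells) 1.22 and 1.12. The sum thus varied 1.06 to 1.22 times its mean over these draws, where counting alone gives a ratio of 1.

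For comparison, complex I has nearly the same mean, 15.03 counts per cell against 14.4 for the members. The variance of its sum was 1.20 times the mean at 1100 counts, but 1.56 times at 2000 and 1.58 times at 3000 counts. The members stood at 1.06 and 1.22 at those depths. The G2/M list, genes of mitosis, varied 5.27 times its mean of 7.63 counts, and the cytosolic ribosomal protein list 4.40 times. The G1/S list, whose genes serve DNA replication, varied 2.11 times.

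Single members varied like other genes of their level. Of the 48 members with a mean of at least 0.1 thinned counts, 26 had a variance-to-mean ratio above the median of protein-coding rows of like mean. Their median ratio was 1.10, against 1.09 over 1980 other protein-coding rows and 1.31 for G2/M genes. The lowest member was MRPS12, the relative of bacterial S12 at the decoding site, at 0.895, and the highest was MRPS18A at 1.28.

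**Figure D2:**
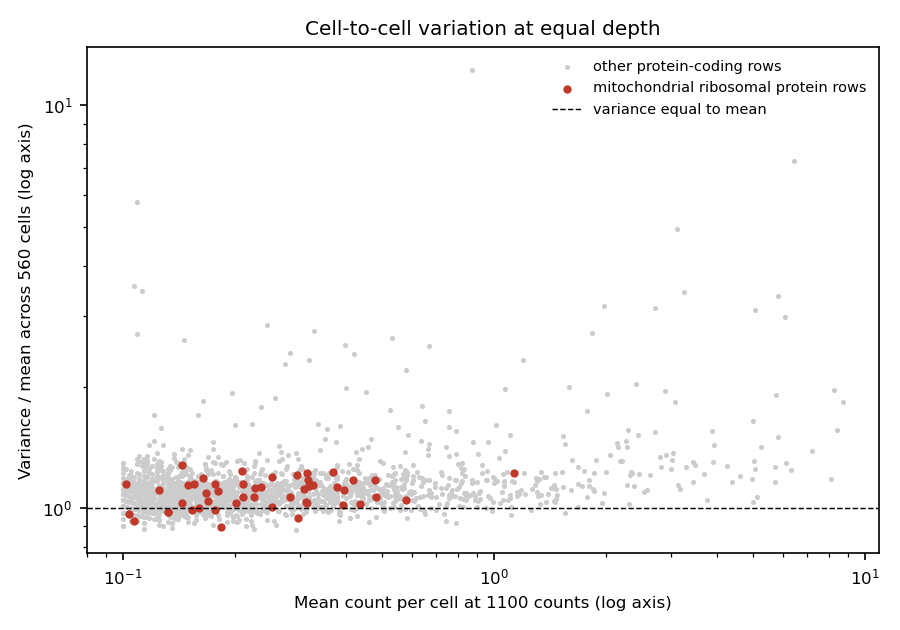
Variance over mean of each gene across 560 cells at 1100 counts per cell, against its mean count per cell, both on log axes. The 48 members (red) run from 0.895 to 1.28 and lie within the cloud of 1980 other protein-coding rows (grey), and the dashed line marks a variance equal to the mean.

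Pairs of members had rho values close to those of other genes of like mean. The mean Spearman rho over 1128 pairs of members was 0.0015, against 0.00019 over all pairs of 1807 protein-coding rows of like mean, and 50.4% of member pairs lay above 0. The spread of rho was the same as well, with an SD of 0.044 for member pairs and 0.043 for the other rows, and 17 member pairs (1.51%) lay above 0.1, where 1.32% of the others did. Respiratory chain pairs had a mean rho of 0.0031, cytosolic ribosomal protein pairs 0.030 and G2/M pairs 0.11. A mean rho near 0 does not show that a list has no shared variation at this depth, since the respiratory chain sum varied 1.64 times its mean, against 1.13 times without covariance, at that low mean rho. All pairs share the same 560 cells at the fixed depth of 1100 counts, and correlations of this size in sparse counts are descriptions only.

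The highest pair was MRPS34 with MRPL40 at a rho of 0.17, with 0.23 in barcode set 1 and 0.098 in set 2. MRPL32 with MRPL20 followed at 0.13, MRPS6 with MRPS18B at 0.13, MRPS24 with MRPS18A at 0.13 and MRPS7 with MRPL12 at 0.12. They are the extremes of 1128 pairs. The summed large subunit count had a rho of 0.051 with the summed small subunit count, and this was 0.027 in the second thinning and -0.065 at 2000 counts per cell.

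**Figure D3:**
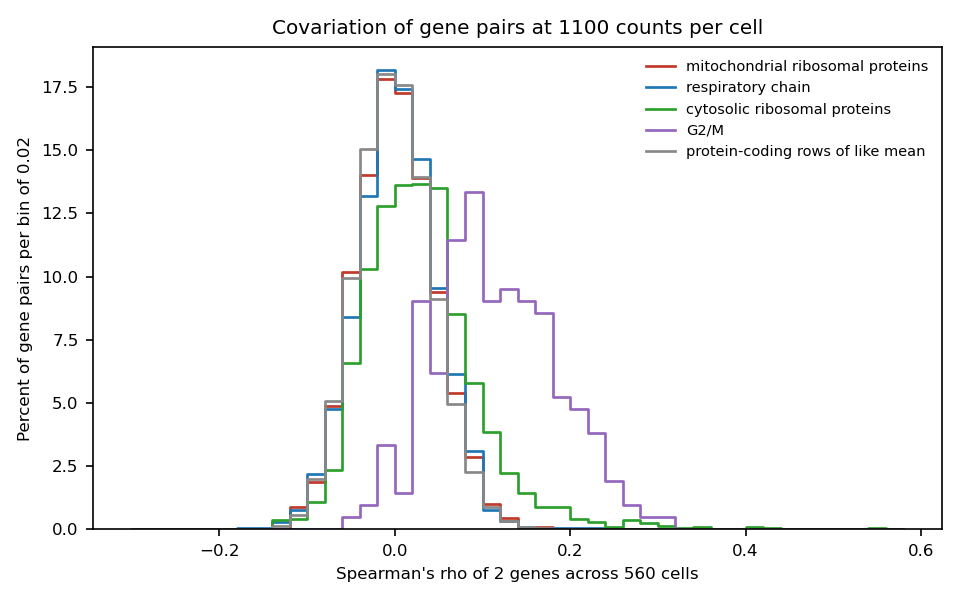
Share of gene pairs per bin of 0.02 of Spearman's rho across 560 cells at 1100 counts, for pairs within each list. The curve of the members (red) lies on that of protein-coding rows of like mean (grey), with means of 0.0015 and 0.00019, while the G2/M curve is shifted to a mean of 0.11.

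The third question is how member levels relate to the respiratory chain, the system that the mitochondrial ribosome serves. Across 560 cells at equal depth the member sum had a rho of 0.099 with the respiratory chain sum, with 0.12 in barcode set 1 and 0.066 in set 2. It was 0.099 after centring within blocks of 30 neighbouring columns, and 0.045 in the second thinning. By complex it was 0.11 with complex I, 0.0032 with complex II, 0.030 with complex III, 0.024 with complex IV and 0.0099 with complex V. The value for complex I was 0.0063 in the second thinning, and 0.10 at 1500, 0.088 at 2000 and 0.099 at 3000 counts per cell. Within cells of the highest, middle and lowest G2/M score the rho with the respiratory chain was 0.16, 0.058 and 0.094.

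The respiratory chain sum and the cytosolic ribosomal protein sum had a rho of 0.34 with each other, above that of the members with either. The rho of complex I with complexes II to V was 0.17, and with the cytosolic ribosomal protein sum 0.19, at a mean count like that of the members, and these were 0.17 and 0.099 in the second thinning. The rho of the members was 0.051 with complexes II to V and -0.032 with the cytosolic ribosomal protein sum. At 2000 counts per cell the values for complex I were 0.31 and 0.22, and for the members 0.036 and 0.076. At 3000 counts they were 0.30 and 0.33 for complex I, and 0.092 and 0.13 for the members, with the last split into 0.28 in barcode set 1 and -0.025 in set 2. These differences between correlations were not tested.

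Cells were also ranked by their thinned respiratory chain count, and the 186 highest (46 counts or more) were set against the 186 lowest (39 or fewer). With full counts the members stood at 13296 CPM in the rich and 12792 CPM in the poor cells, a log2 ratio of 0.056 (0.0053 to 0.11). Without MRPS21 it was 0.023 (-0.030 to 0.076). The small subunit genes had a ratio of 0.11 (0.025 to 0.19) and the large subunit genes 0.022 (-0.043 to 0.087), and the difference between the subunits, 0.085 (-0.018 to 0.19), has an interval that holds 0. Without MRPS21 the small subunit ratio was 0.021 (-0.071 to 0.11), from 1828 counts in rich and 1999 in poor cells. Per thinned cell the medians were 14 member counts in rich and 13 in poor cells. The cytosolic ribosomal protein genes had a ratio of 0.17 (0.15 to 0.18) and G2/M genes -0.55 (-0.62 to -0.48) in the same cells. Of the rich cells 80 and of the poor cells 121 lay in barcode set 1, and the member ratio was 0.070 in set 1 and 0.025 in set 2.

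Of the 68 members with at least 50 counts, 1 had a log2 ratio above 0.5, against 7.31% of 4566 rows, and 2 had one below -0.5, against 15.4%. The members have more counts than the usual row (a median of 222, against 124 over 4638 rows), which by itself narrows the spread of ratios. Of the members 32 lay above 0, against 43.0% of rows, and the median member stood at -0.0029, where the median row stood at -0.065. MRPL2 was the highest at 0.69, from 16 counts in rich and 11 in poor cells. MRPS14 stood at 0.45, MRPS26 at 0.44 (0.013 to 0.87), MRPS21 at 0.43 (0.25 to 0.61) and MRPS15 at 0.33. MRPS21 had 563 counts in the rich and 464 in the poor cells, and its ratio was 0.41 in set 1 and 0.42 in set 2. On the other side MRPS27, a pentatricopeptide repeat protein of the small subunit, stood at -0.99 (-2.23 to 0.15), from 10 counts in rich and 22 in poor cells, MRPL20 at -0.60 (-1.13 to -0.087), MRPS9 at -0.45, MRPL48 at -0.39 and MRPL11 at -0.38.

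Ranking the other way, by the members themselves, gave small ratios too. In the 186 cells richest in member counts against the 186 poorest, respiratory chain genes stood at 39568 CPM in the rich and 38683 CPM in the poor cells, a log2 ratio of 0.033 (0.0035 to 0.062). Complex I had 0.074 (0.024 to 0.12), complex II, with only 4 genes, 0.21 (-0.0014 to 0.43), complex III 0.058 (-0.015 to 0.13), complex IV -0.016 (-0.081 to 0.050) and complex V -0.012 (-0.068 to 0.044). Of 72 respiratory chain genes with at least 50 counts, 4 lay above 0.5 and 0 below -0.5, against 8.36% and 9.98% of 4570 rows, and 48 lay above 0, against 49.6% of rows. The ribosome proteins with other names had a ratio of 0.11 (-0.023 to 0.24) and the translation factors -0.0050 (-0.17 to 0.16).

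The fourth question is whether member levels go with the cell cycle. The differences were small. Cells with 9 or more G2/M counts and cells with 4 or fewer (186 each) held members at 13218 and 12755 CPM, a log2 ratio of 0.051 (0.00039 to 0.10). Respiratory chain genes were lower in the G2/M-rich cells, with a ratio of -0.11 (-0.14 to -0.085), and so were the cytosolic ribosomal protein genes, at -0.14 (-0.16 to -0.13). The ratio of member to respiratory chain counts differed between these cells by 0.17 on the log2 scale (0.11 to 0.22), and that of member to cytosolic ribosomal protein counts by 0.20 (0.14 to 0.25). By complex the ratios were -0.094 for complex I, 0.21 (-0.0022 to 0.43) for complex II, -0.15 for complex III, -0.16 for complex IV and -0.11 for complex V. The large subunit genes stood at 0.042 (-0.024 to 0.11) and the small subunit genes at 0.064 (-0.018 to 0.15). MRPS21 stood at -0.16 (-0.34 to 0.020), and without it the small subunit ratio was 0.13 (0.033 to 0.22) and that of all members 0.071 (0.017 to 0.12). Median totals were 2371 in rich and 2021 in poor cells.

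Of 68 members, 5 had a log2 ratio above 0.5 in G2/M-rich cells, against 15.6% of 4603 rows, 1 had one below -0.5, against 12.5%, and 35 lay above 0, against 50.7%. The counts past 0.5 are at or below the share of all rows. MRPL44, a large subunit protein with a ribonuclease III fold, was the highest at 2.02 (0.88 to 3.34), from 35 counts in rich and 8 in poor cells, with 2.34 in barcode set 1 and 1.65 in set 2. MRPL46 stood at 1.10 (0.35 to 1.89) with 51 and 22 counts, MRPS36 at 0.73, MRPL37 at 0.62 (0.28 to 0.97) with 190 and 114 counts, and MRPS10 at 0.55 (0.038 to 1.08). MRPL19 was the lowest at -0.67 (-1.65 to 0.28), followed by MRPL2 at -0.45, MRPL36 at -0.41, MRPL53 at -0.29 and MRPL3 at -0.29, all with intervals that hold 0. MRPS11, which starts in the same region as MRPL46, stood at 0.077 (-0.40 to 0.56), with 81 counts in rich and 71 in poor cells.

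Cells rich in G1/S transcripts (4 counts or more) and cells poor in them (2 or fewer), 186 each, held members at 13270 and 12802 CPM, a log2 ratio of 0.052 (0.0016 to 0.10). The score is thin, with 64 and 81 cells at the bounds. This ranking is not separate from that by G2/M, since G1/S genes stood at 0.35 (0.23 to 0.46) in the G2/M-rich cells. G2/M genes stood at 0.20 (0.13 to 0.27) in the G1/S-rich cells. Respiratory chain genes stood at 0.0048 (-0.024 to 0.034) and cytosolic ribosomal protein genes at -0.047 (-0.061 to -0.034). The translation factors were higher at 0.22 (0.051 to 0.38), with 3 of 7 genes above 0.5, against 11.8% of 4611 rows, and the ribosome proteins with other names stood at 0.14 (0.0063 to 0.27), with 1 of 6 above it. Without the deepest cell, which lies among the poor cells, the member ratio was 0.049 (-0.0019 to 0.0999), and with ranks taken within blocks of 30 columns it was 0.019 (-0.032 to 0.069).

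Of 68 members, 7 had a log2 ratio above 0.5 in G1/S-rich cells, against the same 11.8% of rows, and 1 had one below -0.5, against 11.7%, and 35 lay above 0, against 2305 of the 4611 rows. These shares are near or below those of all rows. MRPL44 was again the highest at 1.46 (0.45 to 2.56), from 30 counts in rich and 12 in poor cells, with 1.45 in set 1 and 1.501 in set 2. MRPL39, a relative of threonyl-tRNA synthetases, stood at 0.83, MRPL48 at 0.80, MRPS12 at 0.77 (0.28 to 1.26) with 91 and 59 counts, and MRPL18 at 0.71. The lowest were MRPL47 at -0.79 (-1.63 to 0.0070), MRPL54 at -0.50, MRPS22 at -0.46, MRPS36 at -0.37 and MRPS27 at -0.33. The row that joins MRPS16 with DNAJC9 stood at 0.045 (-0.31 to 0.40).

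The last comparison sets the mitochondrial against the cytosolic ribosome. In the 186 cells richest in cytosolic ribosomal protein transcripts (204 counts or more) and the 186 poorest (182 or fewer), members stood at 13100 and 13110 CPM, a log2 ratio of -0.0010 (-0.051 to 0.049). The deepest cell, of 42404 counts, lies among the poor cells, and without it the member ratio was -0.0064 (-0.057 to 0.044). The ratios of other lists and of single members given here include that cell. In the same cells the respiratory chain had a ratio of 0.20 (0.17 to 0.23), with complex I at 0.18, complex III at 0.29, complex IV at 0.24 and complex V at 0.17. G2/M genes stood at -0.64 and G1/S genes at -0.40. The translation factors, which were higher in G1/S-rich cells, were higher here too, at 0.23 (0.070 to 0.40). The ratio of member to respiratory chain counts differed by -0.20 on the log2 scale (-0.26 to -0.15). The median of all rows was -0.16 in this comparison, in which the ranked list itself takes 17.3% of the counts, so a value near 0 lies above that of most rows. The like measure for the members is not the ratio of summed counts but the median member, which stood at -0.056.

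Of 68 members, 5 had a ratio above 0.5, against 5.78% of 4564 rows, and 2 had one below -0.5, against 20.8%, and 29 lay above 0, against 34.6%. MRPL35 was the highest at 1.28 (0.49 to 2.11), from 41 counts in rich and 21 in poor cells, with 1.10 in set 1 and 1.54 in set 2. MRPS18C followed at 0.84 (0.32 to 1.36), with 79 counts in rich and 55 in poor cells, while its paralogs MRPS18A and MRPS18B stood at 0.17 (-0.39 to 0.72) and -0.19 (-0.64 to 0.25). MRPS14 and MRPS33 stood at 0.58 each and MRPL47 at 0.52. MRPL15 was the lowest at -0.84 (-1.76 to 0.015), followed by MRPS10 at -0.55, MRPS5 at -0.48, MRPL49 at -0.42 and MRPS27 at -0.37. RefSeq names 4 pseudogenes of MRPL35 and 6 of MRPS18C.

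**Figure D4:**
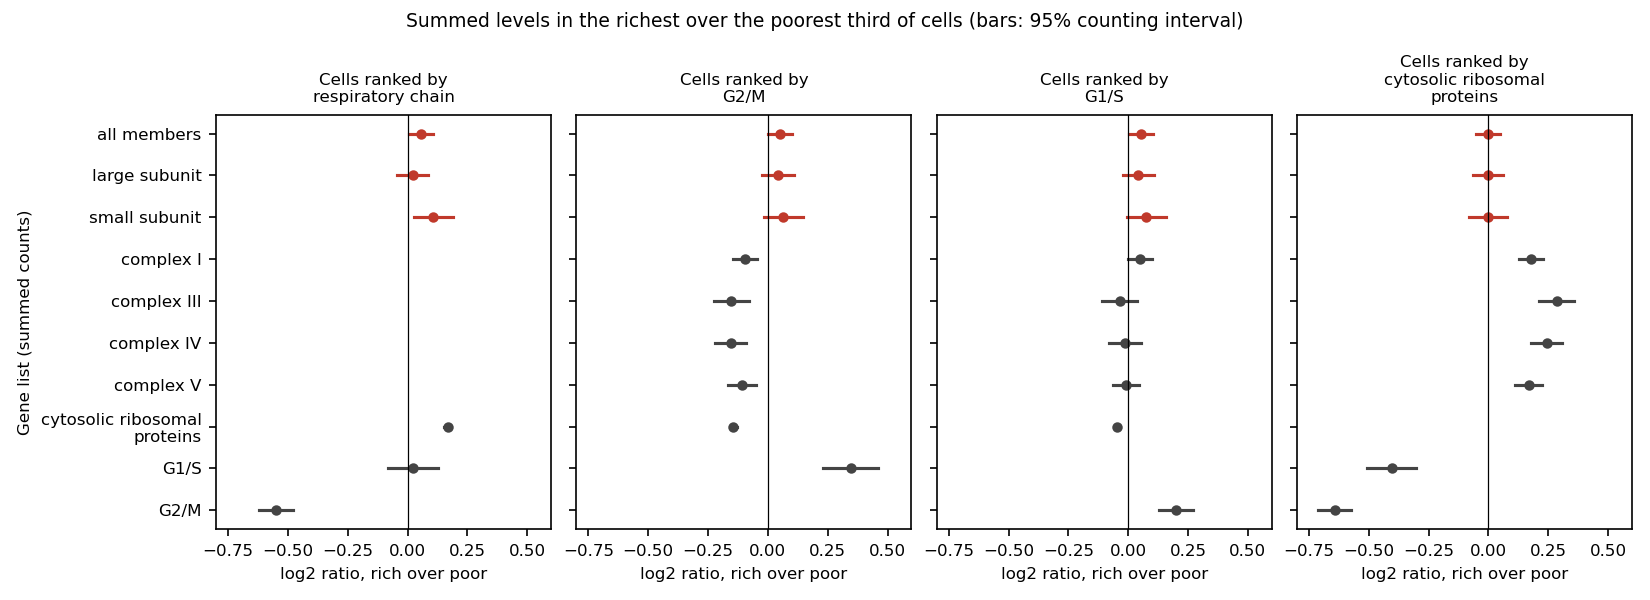
Log2 ratio of summed CPM between the 186 richest and the 186 poorest cells, for 4 rankings of the cells, with 95% counting intervals as bars. The members and both subunits (red) lie near 0 in each panel, at -0.0010 to 0.056 for all members. Complexes I, III, IV and V lie below 0 with G2/M and above 0 with the cytosolic ribosome. Complex II is not drawn, and its intervals hold 0 in both.

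**Figure D5:**
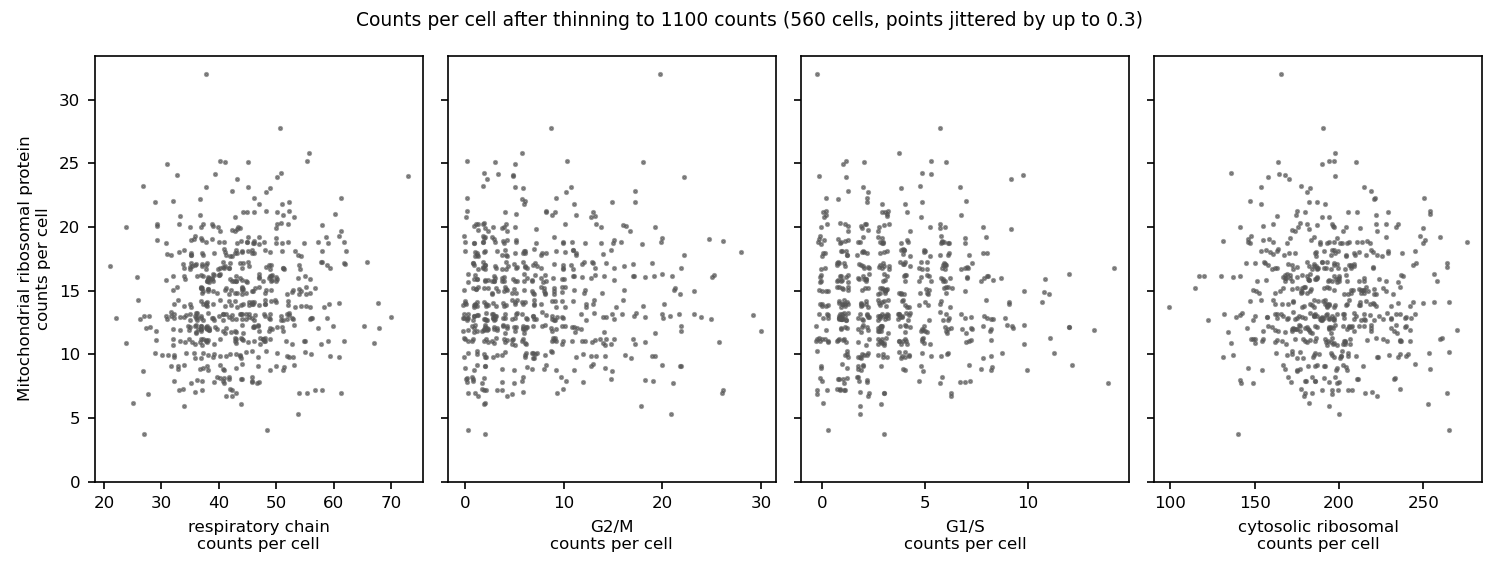
Member counts of each of 560 cells at 1100 counts, against the cell's counts of the respiratory chain, G2/M, G1/S and cytosolic ribosomal protein lists, with points jittered by up to 0.3. The clouds show no slope by eye, with rho of 0.099, 0.030, 0.016 and -0.032.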

How the data were processed

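SK-N-AS cells were measured by MARS-seq. The authors deposited raw counts, whole numbers for each gene in each cell. Whether a count is a molecule or a read is unstated in the labels. Bowtie2 2.1.0 and the genome build hg19 are named in the submitters' processing notes. Counting tool, annotation and cell filter: not given in the sources used here. A row named unknown held 2 counts (0.00013%) and was left out. No doublet caller was run, since per the labels each well received 1 sorted cell.

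CPM are counts summed over cells and scaled to 1000000, with exact Poisson intervals. Shares of cells carry Clopper-Pearson intervals, and log2 ratios exact conditional binomial intervals, all at 95%. Differences between 2 log2 ratios carry the normal-theory interval of a log odds ratio. They cover counting error only. A gene at 0 is given the limit of 3 counts. Values per cell were taken after drawing 1100 of its counts at random, without putting any back, which left out 7.13% of cells. The richest and poorest groups are 1 in 3 of the thinned cells by a list's thinned count, with ties broken at random, and stand for the ends of a range. Since there was 1 sample, neither a p-value nor a count model was made. Members named are the 10 highest, those at 0, the 5 lowest above 0, the MRPS18 paralogs, and the 5 highest and 5 lowest ratios per comparison among members with at least 50 counts. Any other member is named because a list or a neighbour brings it in. The members and lists were chosen with earlier results of these data known. Other lists hold joint rows too, such as those named first for GTF2H4 (tRNA synthetases) and SEC31B (complex I). Their counts may include those of the other gene. Promoter windows, names of pseudogenes and neighbours come from RefSeq on GRCh38.p14, which is not the build of the counts. The computation used Python 3.11.15, NumPy 2.4.6 and SciPy 1.17.1. The ratios, thinning and rho were tested on simulated Poisson counts, and rho only for independent genes. Genes that vary together, or by more than counting error, were not simulated.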

Additional observations from a re-analysis of the deposited data

How the results depend on the processing

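Of 76 alternatives to the levels, ratios and correlations, 71 were counted as the same. For a ratio this means within the counting interval of the reported value, and for the mean rho within 1.5 times of it. The 7 alternatives for the level of each subunit have no such interval and were all counted as the same. The alternatives were other thinned depths and random thinnings, no thinning, a split at the median, each barcode set alone, the deepest cell left out, ranks within blocks of columns, joint rows or MRPS21 left out, other pseudocounts and means over cells. The member ratio ranged from 0.023 to 0.096 with the respiratory chain, from 0.016 to 0.071 with G2/M, from 0.019 to 0.068 with G1/S and from -0.037 to 0.051 with the cytosolic ribosome. The last value came from barcode set 1 alone, where set 2 alone gave -0.030. Ranked by the members, the alternatives of which were chosen after seeing the data, as were the depths of 2000 and 3000 counts and the small subunit without MRPS21, the respiratory chain ratio ranged from 0.018 to 0.060. Median log2(CPM + 1) levels ranged from 7.02 to 7.22 for the large and from 7.02 to 7.19 for the small subunit. The mean rho between members, 0.0015, was 0.0024 at 1500 counts, 0.00087 with another thinning, 0.00033 over all members with a count and -0.0022 as deviations from block means, and the cause was not tested. Most intervals of the member ratio with G2/M and G1/S under these alternatives hold 0. No paired analysis was possible because the table's columns carry no sample or replicate number. At about 14 member counts per cell, shared variation that is small beside counting error was not detectable at this depth.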
